A study of Drosophila melanogaster with 8 samples.

Results

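The Obp56 and Obp57 genes of *Drosophila melanogaster* were followed on 8 two-colour cDNA arrays. Members were all clones whose platform gene symbol begins with Obp56 or Obp57, which gave 11 of the 8448 clones on the array. Of these, 8 clones carried a single symbol (*Obp56d*, *Obp56e*, *Obp56g*, *Obp56h* and *Obp57c*). The other 3 list a pair of genes each, so their ratios cannot be assigned to either gene: 1 clone is annotated with both *Obp56c* and *Obp56b*, and 2 clones with both *Obp57e* and *CG30148*. Clones of the same gene are numbered 1 and 2 in the order of their spots. The remaining *Obp56* and *Obp57* genes, 6 of 14 in the RefSeq gene table, are not analysed here.

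Odorant-binding proteins are small secreted proteins that support cells release into the fluid bathing olfactory and taste neurons, where they bind hydrophobic molecules. Several are also made outside sensory organs, and some pass from male to female in the seminal fluid. Their genes often lie side by side. In the RefSeq order of chromosome arm 2R, *Obp56a*, *Obp56b*, *Obp56c*, *Obp56d*, *Obp56e* and *Obp56f* follow each other without another protein-coding gene between them, and *Obp56g* neighbours *Obp56h*. *Obp57b* lies between *Obp57c* and *Obp57a*, and *Obp57e* lies next to *CG30148*.

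All RNA came from whole adult females of the wild-type strain Oregon-R, aged 4 to 10 days after emergence and reared under a light cycle of 16 h on and 8 h off at 60% humidity. Every pool, of about 240 flies, had been sprayed in a Potter's tower, a device for even topical application, with 99% ethanol (2 mL), and was taken 6 h afterwards. No untreated flies are among these samples, so the ratios say nothing about ethanol. Pools 1 to 8 were set against each other in 4 pairs (1 and 2, 3 and 4, 5 and 6, 7 and 8), each pair on a normal-label array and on a reversed-label array with the dyes exchanged, which gives 4 arrays of each label.

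The values are the authors' deposited ratios of both channels on a log scale whose base was inferred to be 2, centred on each array's median, with the 2 spots of a clone averaged. They are ratios and not levels, so neither expression in a tissue nor the presence of marker genes can be read from them. The labels do not state which channel is the numerator. Across clones, arrays of opposite label from separate pairs, which have no RNA in common, correlated at a median of -0.157 (9 of 12 below 0), so the deposited ratio was read as 1 pool over the other. The dye component is then a pair's mean after the sign of its reversed-label array is turned, and the pool difference is the mean with signs as deposited. Signs of the dye component refer to normal-label arrays, and no dye or pool is assigned to a sign. Under the other reading, the dye and pool components change places. In whole-fly RNA, fewer cells of a type and less RNA per cell cannot be told apart.

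*Obp57c* was represented by 1 clone. On the normal-label arrays of pairs 1 to 4 its log2 ratio was -0.82, -0.43, -1.45 and -0.80, and on the reversed-label arrays it was 0.22, 0.53, -0.23 and 0.36. Every normal-label value lay below every reversed-label value. It was the 1 member clone of 11 (9.09%) whose label groups did not overlap, against 12.8% of all clones, so this count lies near the background. With *Obp56d* clone 2 it was also 1 of 2 member clones past 2-fold on at least 1 array, against 12.8% of all clones. Its 2 spots had the same sign on 8 of 8 arrays, with a median gap of 0.17 log2 units between them.

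The *Obp56e* clone stood at 0.15, -0.01, -0.67 and -0.49 on the normal-label arrays of pairs 1 to 4. On the reversed-label arrays it stood at 0.46, 0.69, 0.14 and 0.12. All 4 reversed-label values were above 0, and the label groups overlapped only through the normal-label value of pair 1. On the reversed-label arrays at 0.14 and 0.12, however, the clone's spots had opposite signs, -0.01 with 0.29 and 0.35 with -0.11. These spots had the same sign on the other 6 arrays. On the chromosome *Obp56e* lies beside *Obp56d*.

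*Obp56d*, a gene expressed in the antenna and in taste organs, was represented by a pair of clones. Clone 1 read 0.83, 0.45, 0.49 and -0.17 on the normal-label arrays and 0.45, -0.29, -0.35 and 0.06 on the reversed-label arrays, with overlapping groups. Clone 2 read 0.47, 0.41, -12.09 and -0.53 on the normal-label arrays and 0.44, -0.07, -0.18 and 0.21 on the reversed-label arrays. The value of clone 2 on the normal-label array of pair 3 was the lowest of all 8448 clones on that array, whereas clone 1 stood at 0.49 there. On the other 7 arrays the same clone stayed between -0.53 and 0.47.

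Both spots of clone 2 held the identical number on that array, to every deposited digit, and whether this value measures a ratio was not tested. Identical values in both spots occurred in 16 of 67584 pairs of spots over all clones and arrays. Only 2 of the 16 lay past 2-fold, this one and an unnamed clone at -13.09 on the normal-label array of pair 2. Clones next to *Obp56d* clone 2 in spot number did not share the shift, and their place on the slide was not examined. *Obp44a* stood at -0.05 and *Tep4* at -0.21 on the normal-label array of pair 3. With that array left out, the largest distance between the *Obp56d* clones on the remaining arrays was 0.37 log2 units, and their signs matched on 7 of the 8 arrays.

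**Figure D1:**
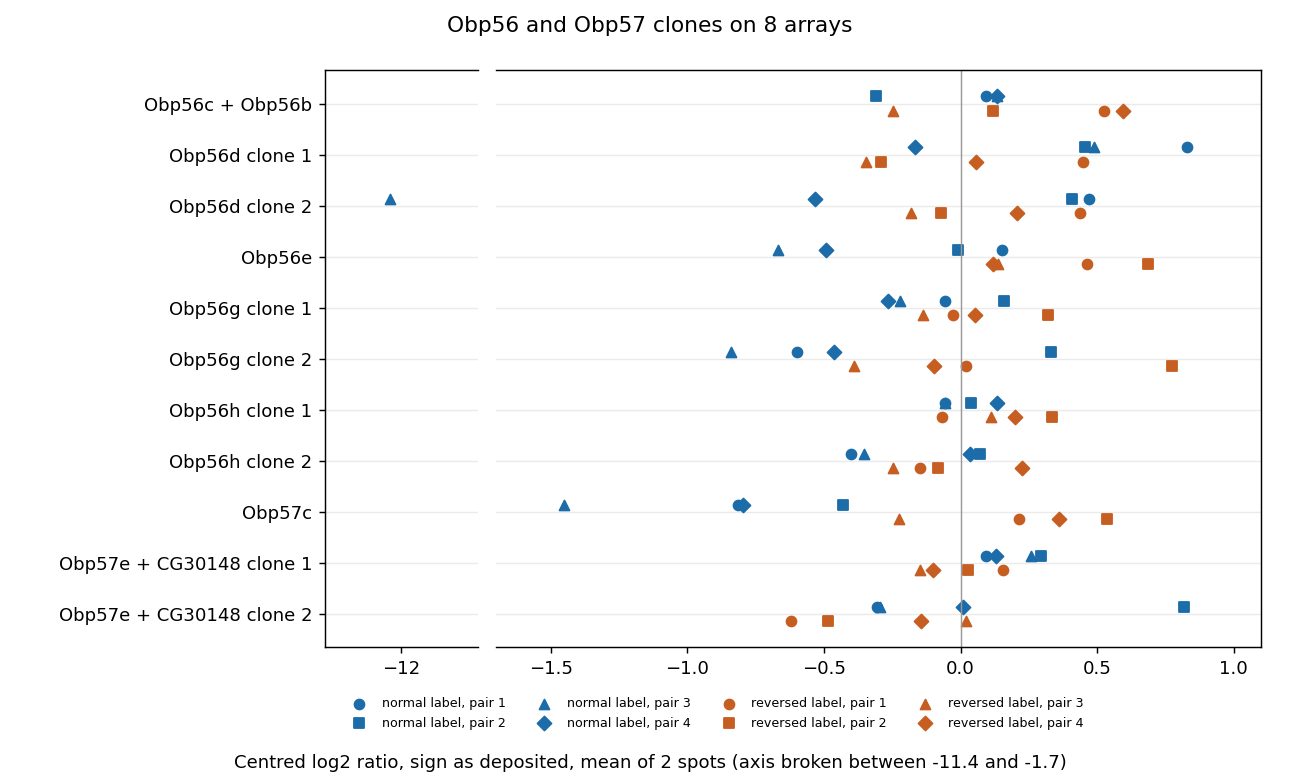
Centred log2 ratio (x axis, with a break) of the 11 Obp56 and Obp57 clones on the 4 normal-label arrays (blue) and 4 reversed-label arrays (orange), with a marker shape for each pair of pools. Obp57c is the clone whose colours do not overlap, and Obp56d clone 2 has 1 value at -12.09.

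*Obp56g*, which encodes a seminal fluid protein made in the male ejaculatory bulb, also had a pair of clones. Clone 2 read -0.60, 0.33, -0.84 and -0.46 on the normal-label arrays and 0.02, 0.77, -0.39 and -0.10 on the reversed-label arrays. In each pair its normal-label value was below its reversed-label value, although the groups overlapped because pair 2 was high on both arrays. Clone 1 ran from -0.27 to 0.16 on normal-label and from -0.14 to 0.32 on reversed-label arrays. Its spots disagreed most on the normal-label array of pair 3, at 0.94 and -1.39, giving a mean of -0.22 there. Spots of clone 1 matched in sign on 3 of 8 arrays and those of clone 2 on 7.

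*Obp56h*, whose knockdown in males is known to alter mating behaviour, stayed near 0. Its clone 1 ran from -0.07 to 0.34 over the 8 arrays and its clone 2 from -0.40 to 0.22. The spots of each clone had the same sign on 4 of 8 arrays. The clone annotated with *Obp56c* and *Obp56b* ran from -0.31 to 0.60. *Obp57e* is known for its part in taste and in the choice of egg-laying sites. Of the clones annotated with it and *CG30148*, clone 1 ran from -0.15 to 0.29 and clone 2 from -0.62 to 0.82, and the spots of clone 1 matched in sign on 1 of 8 arrays. The median gap between spots was 0.25 log2 units for member clones and 0.19 for all clones.

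The next comparison was how far a clone's ratio followed the dye. In the limma test over 4 pairs, 2 of 11 member clones passed 5% after Benjamini-Hochberg adjustment over all clones, both below 0, against 8.56% of all clones in either direction, 4.31% below 0 and 4.25% above 0. They were *Obp57c* at -0.55 ± 0.06 (mean log2 ± SD, n = 4 pairs, limma adjusted p = 0.018, 95% interval -0.70 to -0.40) and *Obp56e* at -0.30 ± 0.11 (limma adjusted p = 0.0418, 95% interval -0.47 to -0.14). The pairs gave -0.52, -0.48, -0.61 and -0.58 for *Obp57c* and -0.16, -0.35, -0.40 and -0.31 for *Obp56e*. The spread of *Obp57c* over pairs was smaller than its SD over single arrays within the normal-label (0.42) and reversed-label (0.33) groups. Its range of 1.99 log2 units over all single arrays includes the dye component itself.

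Among the 9 member clones that did not pass, *Obp56g* clone 2 came closest, at -0.23 ± 0.05 (SD, n = 4 pairs) and below 0 in 4 of 4 pairs (limma adjusted p = 0.0654). *Obp56g* clone 1 was also below 0 in 4 of 4 pairs, at -0.07 ± 0.06 (95% interval -0.22 to 0.08). *Obp56d* clone 1 stood at 0.22 ± 0.24 (95% interval -0.01 to 0.45). *Obp56d* clone 2 had the largest mean, -1.52 ± 2.97, but its pairs were 0.02, 0.24, -5.95 and -0.37, and without pair 3 the mean was -0.04. The clones of *Obp56h* gave -0.07 and -0.05, that of *Obp56c* and *Obp56b* gave -0.12, and those of *Obp57e* and *CG30148* gave 0.11 and 0.18. An unadjusted p under 0.05 was held by 3 of the 11 clones, against 26.5% of all clones. Of the 11 clones, 8 had a mean below 0, with a median of -0.07, while 49.0% of all clones were below 0, with a median of 0.0044.

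The calls depended on the set of arrays, for member clones and for all clones. Over all clones 723 passed, against 3, 4, 21 and 359 without pair 1, 2, 3 and 4. Without the normal-label or the reversed-label array of pair 3, 0 of all clones passed. With 1 of its arrays left out, the other stands for pair 3, so the pool difference of that pair enters the dye mean. *Obp57c* did not pass without pair 1, 2 or 3 (limma adjusted p = 0.0967, 0.0817 and 0.0537) and passed without pair 4 (0.04), while its mean stayed between -0.57 and -0.53. *Obp56e* did not pass without pair 1, 2, 3 or 4 (adjusted p of 0.0935 to 0.143), with means between -0.35 and -0.27. Without the normal-label array of pair 3 the mean of *Obp57c* was -0.34 (limma adjusted p = 0.432) and that of *Obp56e* -0.24 (0.382). Without the reversed-label array of that pair they were -0.76 (0.123) and -0.37 (0.138). Under the other reading of the ratio these calls belonged to the pool component.

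**Figure D2:**
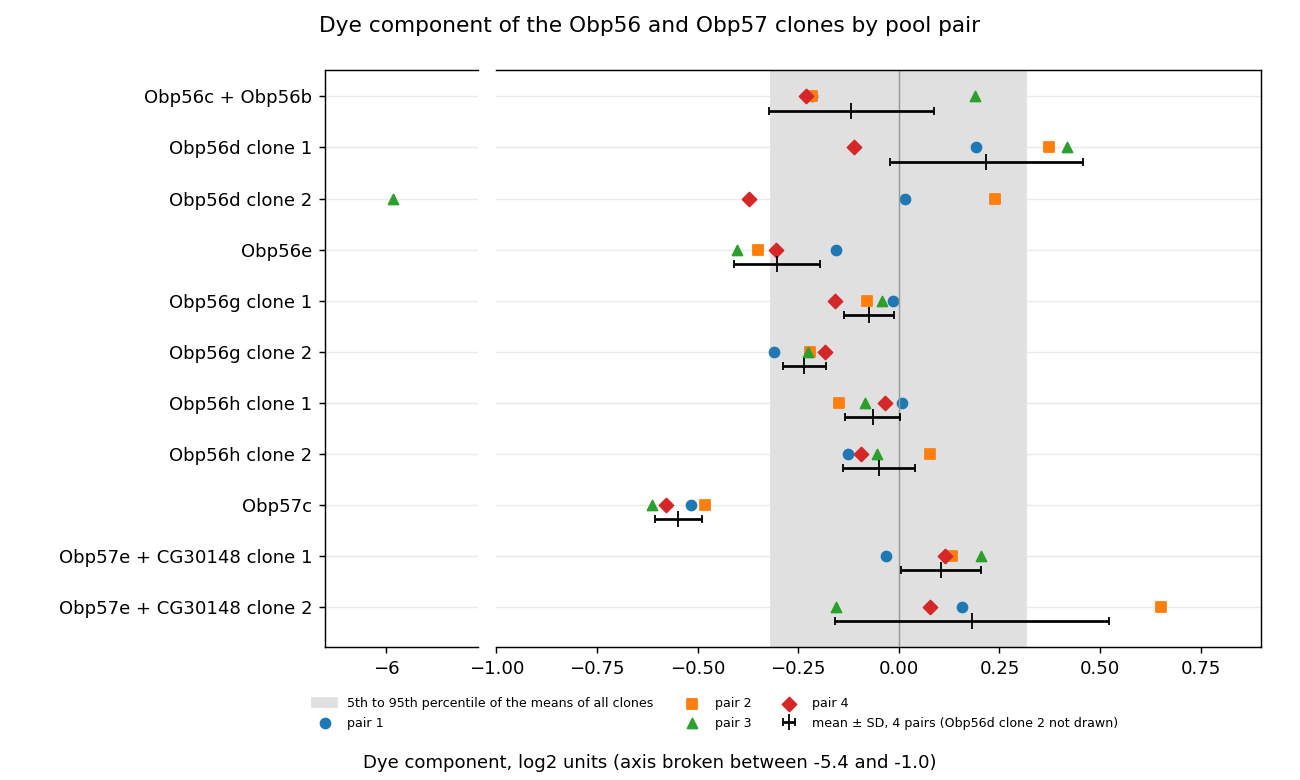
Dye component of each clone in the 4 pairs of pools (x axis in log2 units, with a break), with the mean and SD over pairs drawn in black and the 5th to 95th percentile of the means of all clones in grey (-0.32 to 0.32). The mean of Obp57c, -0.55, lies outside the grey band, which holds means and not single pairs, and its 4 pairs lie between -0.61 and -0.48. The mean and SD of Obp56d clone 2 are not drawn.

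Clones of one gene were compared in the dye component, with 4 such comparisons and an exact permutation test of the signs over 4 pairs, whose smallest two-sided p is 0.125. *Obp56g* clone 2 lay below clone 1 by a mean of -0.16 ± 0.11 (SD, n = 4 pairs), in 4 of 4 pairs (exact p = 0.125, 0.25 after Benjamini-Hochberg adjustment). *Obp56d* clone 2 lay below clone 1 in 4 of 4 pairs too (exact p = 0.125, adjusted 0.25), by -1.73 ± 3.09, and by -0.19 ± 0.06 without pair 3. The *Obp56h* clones differed by 0.02 ± 0.16 (exact p = 0.875) and those of *Obp57e* and *CG30148* by 0.08 ± 0.37 (exact p = 0.75). With 4 pairs none of these differences could pass 5%.

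Whether pools treated alike differed in these genes was asked next. A mean over pairs cannot answer this alone, because differences of opposite sign cancel in it. As all pools were treated alike, it is a null comparison. Across the 4 pairs, the mean difference between numerator and denominator pools passed in 0 of 11 member clones by limma, against 0% of all clones, and 0 of the 11 had an unadjusted p under 0.05, against 5.34%. The limma adjusted p ran from 0.821 to 0.967. The mean was furthest from 0 for *Obp56d* clone 2, at -1.42 (95% interval -3.70 to 0.86), through its single value in pair 3. Next came *Obp57c* at -0.33 ± 0.37 (SD, n = 4 pairs, 95% interval -0.65 to 0.00028). For the other 9 clones the means lay between -0.16 and 0.18.

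In the limma F-test for a difference in any pair, 0 of 11 member clones passed, against 0% of all clones. An unadjusted p under 0.05 was held by 3 of 11 (*Obp56g* clone 2, *Obp57c* and *Obp56e*), against 14.9% of all clones. Without the reversed-label array of pair 3, in a fit where the value of -12.09 has no partner array, *Obp56d* clone 2 passed.

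Pair by pair, 1 difference passed. In pair 3 (pools 5 and 6) *Obp57c* had a coefficient of -0.84 (95% interval -1.14 to -0.54, limma adjusted p = 0.0269), 1 of 11 member clones against 3.2% of all clones. An unadjusted p under 0.05 was held there by 3 of 11, against 23.8% of all clones. *Obp56g* clone 2 stood at -0.62 in that pair, where its limma adjusted p lay just above 0.05, and at 0.55 in pair 2 (adjusted p = 0.27). Clone 1 of the same gene stood at -0.18 in pair 3 (limma adjusted p = 0.437) and at 0.24 in pair 2 (0.802). *Obp56e* was likewise lowest in pair 3 and highest in pair 2, with 0.31, 0.34, -0.27 and -0.19 in pairs 1 to 4, none of which passed (limma adjusted p of 0.299 to 0.89). *Obp56d* clone 2 stood at -6.13 in pair 3 (95% interval -10.58 to -1.69, limma adjusted p = 0.109). This coefficient follows which array of the pair is kept: it passed at -12.05 without the reversed-label array (limma adjusted p = 5.14e-05) and was -0.22 without the normal-label array (0.83).

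In pairs 1, 2 and 4, 0 of 11 member clones passed by limma, against 0% of all clones in each. The unadjusted p was under 0.05 for 2, 2 and 0 of 11 member clones, against 6.5%, 7.4% and 5.36% of all clones. The furthest coefficient in pair 1 was that of *Obp56d* clone 1 (0.64, limma adjusted p = 0.584), and in pair 4 that of the clone annotated with *Obp56c* and *Obp56b* (0.36, adjusted p = 0.865). Excluding *Obp56d* clone 2, member coefficients ran from -0.46 to 0.64 in pair 1, -0.09 to 0.55 in pair 2, -0.84 to 0.07 in pair 3 and -0.28 to 0.36 in pair 4. Of the 11 coefficients, 6, 2, 8 and 7 were below 0 in pairs 1 to 4, where 48.6%, 49.0%, 49.3% and 50.3% of all clones were below 0.

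The call of *Obp57c* in pair 3 did not hold with arrays scaled to one spread (-0.59, limma adjusted p = 0.24), without pair 1 (0.0777), without pair 2 (0.0633), or without the normal-label array (-0.75, 0.289) or the reversed-label array (-0.93, 0.0863) of that pair. Over all clones 270 passed in pair 3, against 0, 2, 3, 23 and 87 in these settings, in the same order. The normal-label array of pair 3 held 7.63% of all clones past 2-fold, against 0.604% to 1.88% on the other 7 arrays. The medians of short marker lists of other tissues were also below 0 in pair 3, where the median of all clones was 0.0048. The median pool difference there was -0.55 for 4 antenna clones, all of odorant-binding protein genes (0 passing), -0.59 for 2 eye clones of *Galphaq* (1 passing), -0.38 for 4 male clones (1 passing) and -0.36 for 3 ovary clones (0 passing). The male clones held both signs, with *ocn* at -1.36 and *betaTub85D* at 0.40. The 19 clones of other odorant-binding protein genes, which include these antenna clones, had a median of 0.014 in pair 3, with 0 passing. The part of that spread and of these tissues in the value of *Obp57c* was not tested.

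**Figure D3:**
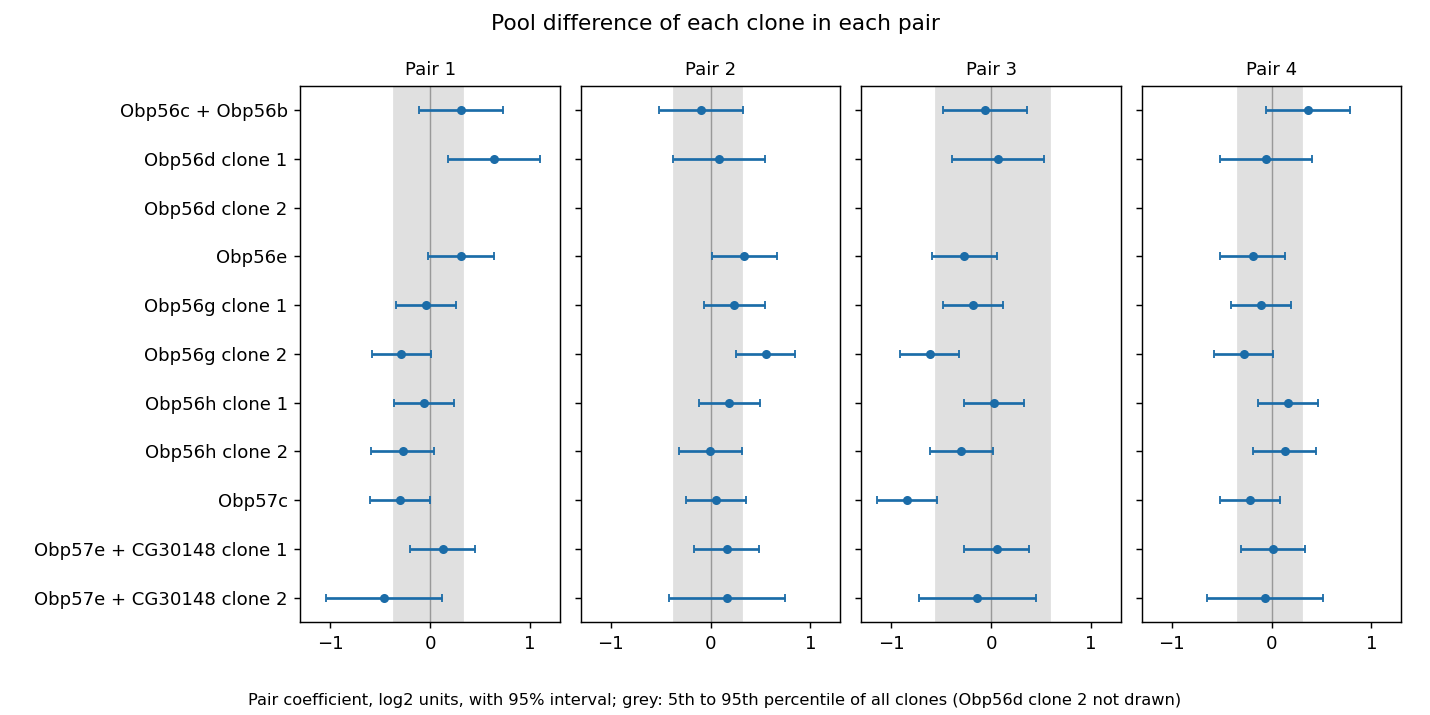
Pool difference of each clone in pairs 1 to 4 (x axis, pair coefficient in log2 units with its 95% interval from the limma fit), with the 5th to 95th percentile of all clones in grey. Obp57c in pair 3, at -0.84, is the 1 difference that passed; Obp56d clone 2 is not drawn because of its value of -6.13 in pair 3.

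The dye component was then set beside that of the rest of the family. Of the 19 clones of 16 other odorant-binding protein genes, 14 were below 0 (73.7%, against 8 of the 11 Obp56 and Obp57 clones), with a median of -0.10. One passed in the limma test, *Obp99c*, on the opposite side at 0.60 ± 0.40 (SD, n = 4 pairs, adjusted p = 0.0469). *Obp19d* at -0.25 ± 0.15 and a clone of *Obp99d* at -0.24 ± 0.15 came next and did not pass (adjusted p = 0.0901 and 0.105). The median absolute dye component was 0.18 for Obp56 and Obp57 clones, 0.11 for other odorant-binding protein clones and 0.11 for all clones, and these medians were not tested against each other.

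Other chemosensory genes were represented by 1 clone, of the gustatory receptor gene *Gr97a* (0.26 ± 0.19, limma adjusted p = 0.106). Male reproductive tract genes are of interest beside *Obp56g* because that tract is absent from females. Their 7 clones of 6 genes had a median dye component of -0.05 and 0 calls. The one with the smallest p, *ocn*, a testis-expressed gene, stood at -0.38 ± 0.29 (adjusted p = 0.0822). In pair 3 their median pool difference was -0.13, with 1 of 7 clones passing, *ocn* at -1.36 (limma adjusted p = 0.0316). In the same pair *Obp56g* clone 2 was at -0.62 and its clone 1 at -0.18. From the male reproductive tract list, *betaTub85D* at 0.40 and *Acp53C14a* at 0.15 in that pair lay on the other side of 0, and neither passed. *ocn* read -2.14 on the normal-label and -0.58 on the reversed-label array of that pair. The part of male RNA in that value was not tested.

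**Figure D4:**
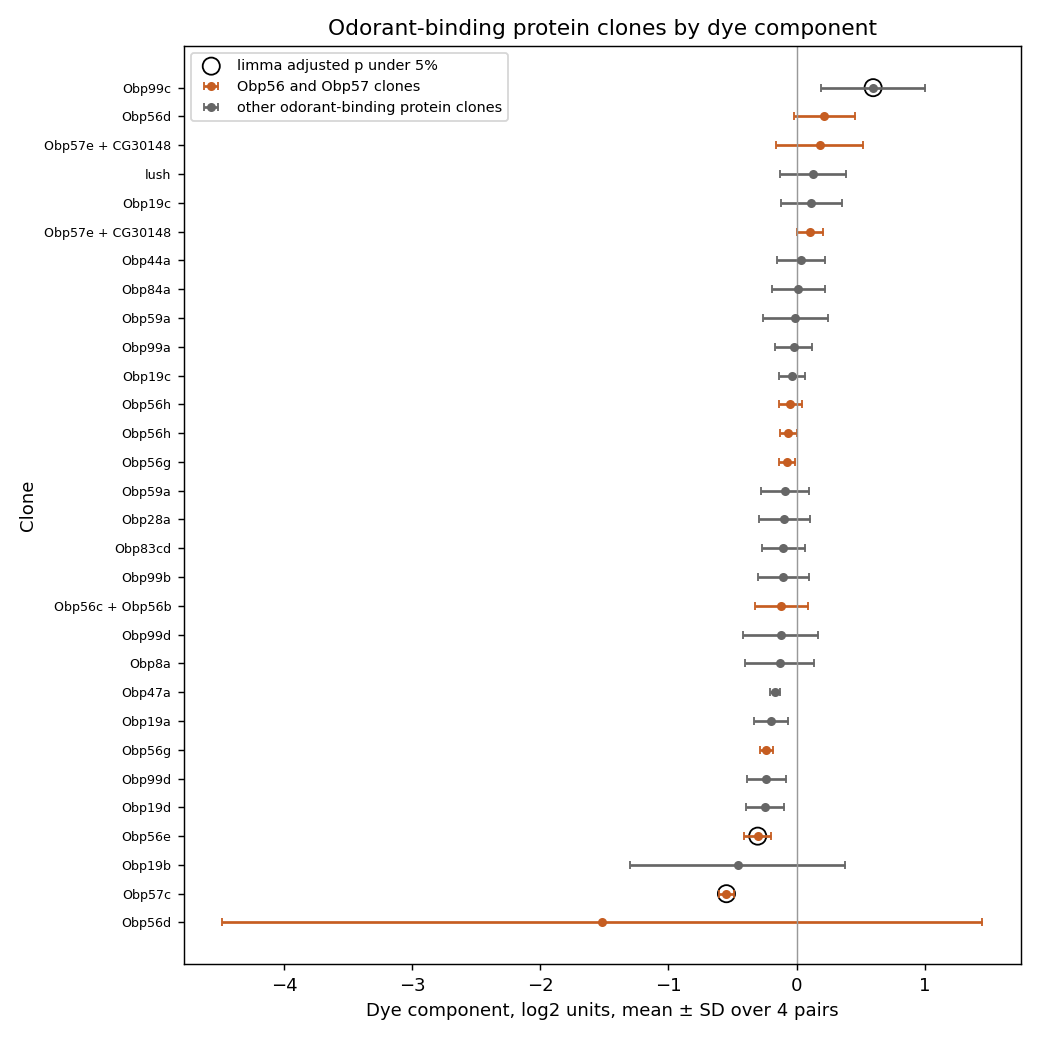
Dye component (x axis, mean and SD over 4 pairs, log2 units) of all odorant-binding protein clones in order, with the 11 Obp56 and Obp57 clones in orange and calls circled. The calls are Obp57c (-0.55), Obp56e (-0.30) and Obp99c (0.60), and Obp56d clone 2 has the widest SD (2.97).

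Likeness of profile was measured as Pearson's r over the 8 deposited values between the 4 member clones of widest range and the 2825 clones of other genes with a single symbol. The arrays of a pair share RNA and all arrays of a label share the dye orientation, so the coefficients are descriptions. They are the highest among many clones, and the best r reached by clones outside the members was not computed. *Obp57c* was most like *Nuak*, a protein kinase gene (0.98), *trio* (0.98) and *ITP*, the ion transport peptide gene (0.98). Of these, *Nuak* was similar in size, with a dye component of -0.53, while *trio* was at -0.19. *Obp56g* clone 2 was most like *cwo*, a repressor in the circadian clock (0.95), the transcription elongation factor gene *TfIIS* (0.93) and the corepressor gene *Smr* (0.93). The second clone annotated with *Obp57e* and *CG30148* was most like a clone of the co-chaperone gene *DnaJ-1* (0.94), *DCTN6-p27* (0.90) and *MCU*, the mitochondrial calcium uniporter gene (0.90).

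For *Obp56d* clone 2 the likeness rested on the normal-label array of pair 3. The closest clones were *klar* (0.99), *CG15144* (0.98) and *CG5214* (0.96), and without that array their r was 0.73, -0.50 and 0.27. Among the members themselves, *Obp57c* and *Obp56e* correlated at 0.86 over 8 arrays and 0.76 without that array, and the *Obp56g* clones at 0.92 and 0.90. The *Obp56d* clones correlated at -0.22 with that array and 0.84 without it. *Obp57c* and *Obp56g* clone 2 correlated at 0.79 over 8 arrays and 0.70 without the normal-label array of pair 3. The *Obp56h* clones correlated at 0.55 (0.46 without that array) and those of *Obp57e* and *CG30148* at 0.26 (0.37). *Obp57c* and clone 1 of *Obp57e* and *CG30148* correlated at -0.54 (-0.37). Over all 55 pairs of member clones r ran from -0.81, between *Obp56d* clone 1 and *Obp56h* clone 1 (-0.79 without that array), to 0.92, with a median of 0.11.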

How the data were processed

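RNA of 8 pools was measured on 8 two-colour arrays, 1 value per spot for 16896 spots. The authors deposited log2 ratios, already centred near 0; base 2 is inferred from their size, and the scanner, background and normalization steps are not stated. Depth has no meaning for arrays: their number limits the precision.

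Array medians were subtracted and the 2 spots of a clone averaged. Platform annotation named 2833 of 8448 clones with 1 symbol, 76 with several and 5539 with none; all 9 distinct member symbols matched the RefSeq table of assembly GCF_000001215.4 by Entrez identifier. Replicate numbers pair the arrays because both carry the same pools; deviations of same-numbered arrays from their label group correlated at 0.0924, 0.185, 0.336 and 0.0994.

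Moderated tests came from limma (version 3.58.1, R 4.3.3), using lmFit and eBayes, and p-values were adjusted by Benjamini-Hochberg over 8448 clones, with calls at 5%. Dye and pool means were tested against 0 over 4 pairs. Pair coefficients and their F-test came from a fit to 8 arrays with a common dye intercept, whose residual is technical, so its calls concern the pools used and not pools in general. Where a setting leaves out 1 array, its partner stands for the pair, so the dye and pool means no longer separate the components of that pair. The fits were tested on simulated data with independent noise, of equal spread on all 8 arrays for a given clone. The deposited arrays differed in spread (median absolute deviation 0.489 on the normal-label array of pair 3, 0.208 to 0.329 on the others). The simulation therefore does not bear on the calls here.

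All member clones are named; list members are those 3 with the smallest dye p, and likeness covers the 4 members of widest range. *Obp44a* and *Tep4*, the unnamed clone at -13.09 on another array, and correlations among members were chosen after values were seen. Members and lists were chosen with earlier results of these data known. Fixed marker lists held 3 ovary, 4 male, 4 antenna, 2 eye and 0 yolk protein clones.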

Additional observations from a re-analysis of the deposited data

Results flagged for a closer look

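Of 44 groups of 4 values examined (label groups, dye values and pool differences of the 11 member clones), 5 held a value far from the other 3 by Dixon's test, and chance gives about 1 in 20. Of the 5, 3 belonged to *Obp56d* clone 2 and rest on the same measurement: -12.09 on the normal-label array of pair 3, which gave a dye value of -5.95 and a pool difference of -6.13 in that pair. The other 2 belonged to the clone annotated with *Obp56c* and *Obp56b*, at -0.31 on the normal-label array of pair 2 and with a dye value of 0.19 in pair 3.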

How the results depend on the processing

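The 2 dye calls among member clones stayed 2 without centring, with arrays scaled to one spread, with robust eBayes and with the pair as a random replicate block. They were 1 with quantile normalization and with single spots, and 0 at a 1% threshold, under the other reading of the ratio, without a replicate block, and without either array of pair 3. For single spots, p-values were adjusted over 16896 spots, and a clone counted where the smaller adjusted p of its 2 spots passed. Leaving out 1 pair gave 0 to 1. For all clones the 723 dye calls fell to 286 with scaled arrays, 258 with quantile normalization, 72 with single spots and 0 without a replicate block. Without pair 1, 2, 3 and 4 they were 3, 4, 21 and 359, and without either array of pair 3 they were 0. The pool component had 0 member calls in every setting except the other reading (2), and the F-test 0 except without the reversed-label array of pair 3 (1). The 1 call in single pairs became 0 with scaled arrays, quantile normalization, single spots, the other reading, a 1% threshold and without the normal-label array of pair 3. Over all clones the 270 calls in pair 3 became 0 with scaled arrays, quantile normalization, single spots and the other reading. The 1 member call became 2 with robust eBayes, which added *Obp56g* clone 2 (limma adjusted p = 0.0481). Without the reversed-label array of pair 3 it was also 1, but the call was *Obp56d* clone 2 (5.14e-05), and *Obp57c* did not pass (0.0863). Leaving out 1 pair gave 0 to 1. The setting without the normal-label array of pair 3 was chosen after seeing the data. Without it, signs turned for the dye means of *Obp56d* clone 2 (0.016) and *Obp56h* clone 2 (0.026), and for pair 3 of the second *Obp57e* and *CG30148* clone (0.31). The other reading, which exchanges the components by construction, turned the dye means of *Obp56e* (0.048), *Obp56h* clone 1 (0.0796), the *Obp56c* and *Obp56b* clone (0.13) and the second *Obp57e* and *CG30148* clone (-0.13). It also turned pair 2 of *Obp56e* (-0.35), *Obp56g* clone 2 (-0.22) and *Obp57c* (-0.48), and for the second *Obp57e* and *CG30148* clone pair 1 (0.16) and pair 4 (0.0777). The cause of the other changes was not tested.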
